A study of Mus musculus with 6 samples.

Results

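The vacuolar ATPase is the proton pump that acidifies lysosomes, endosomes, the Golgi and secretory granules, and 10 genes of its subunits were examined in MIN6B1, an insulin-secreting line from a mouse insulinoma that stands in for beta cells. The genes were Atp6v1a, Atp6v1b2, Atp6v1c1, Atp6v1d, Atp6v1e1, Atp6v1f, Atp6v1g1, Atp6v1h, Atp6v0d1 and Atp6v0a1. They were represented by 11 of 39429 non-control probes, and by 10 of the 25761 genes and unnamed transcripts tested when the brightest probe stood for each gene. Cells had been transfected for 48 h with Lipofectamine RNAiMAX and an siRNA directed at circHIPK3, a circular RNA of the Hipk3 gene, or with siGFP as the control. Each group held 3 samples of total RNA, each on its own Cy3-labelled Agilent array. The labels give neither the sequence nor the number of the siRNAs, and do not say whether replicates were separate cultures, so that p-values measure only how these samples scatter, and that scatter may be technical.

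The pump is built from a cytosolic V1 part, which splits ATP, and a membrane V0 part, which passes protons. In V1, the A and B subunits form the head that binds ATP, the D and F subunits form the central rotor, and the C, E, G and H subunits hold the head in place or regulate it. In V0, the d subunit joins the rotor to the proton ring and the a subunit carries the proton path. In beta cells the acid interior of the granule supports the conversion of proinsulin to insulin.

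Signals are log2 processed intensities minus the 75th percentile of each array, and each change is the circHIPK3 siRNA mean minus the siGFP mean, with its standard error (SE) from a limma fit over all genes. The 75th percentile lay between 2939 and 3669 units, and 77.6% to 83.4% of probes passed the scanner's flag for a signal well above background. Arrays that share a scan time in the scanner headers are taken here to share a slide. On that basis one slide carried all siGFP arrays together with circHIPK3 siRNA replicate 1, and another carried circHIPK3 siRNA replicates 2 and 3. All 11 beta cell markers examined, among them Ins1, Ins2, Iapp, Pdx1 and Mafa, were well above background on all 6 arrays. Among markers of other cell types Cdh5, Hhex and Sox9 were above background on none, whereas the alpha cell hormone gene Gcg had a log2 signal of 4.39 ± 0.46 (SD, n = 3) in siGFP arrays. Its change was -0.59 ± 0.30 (SE, adjusted p = 0.292 by limma), with overlapping groups. No marker of either list was called by limma. No member of the pump was close to background: all 11 probes were well above it on all 6 arrays.

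The 10 genes are named subunits, but the set was selected on earlier results of the same comparison, namely the circHIPK3 siRNA minus siGFP changes on these 6 arrays. Their changes are therefore a description, and the number that passed a threshold supports nothing further. With that reservation, 1 of the 10 passed an adjusted p of 0.05, Atp6v1a, which was higher after circHIPK3 siRNA, and 9 did not. Of all genes tested, 0.528% were called higher, 0.641% lower and 1.17% in either direction. The median change of the 10 members was 0.09, against 0.08 over all genes, and 0.05 without Atp6v1a. The members are unlike all genes in signal, since each was brighter than 79.8% to 96.9% of them. Among the 2046 genes at least as bright as Atp6v1a the median change was 0.0019.

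Atp6v1a encodes the catalytic A subunit, which binds and splits ATP. Its brighter probe had log2 signals of 2.43, 2.61 and 2.35 on the siGFP arrays and 3.55, 3.18 and 3.38 on the circHIPK3 siRNA arrays. All circHIPK3 siRNA arrays lay above all siGFP arrays. The siGFP mean was 2.46 ± 0.13 and the circHIPK3 siRNA mean 3.37 ± 0.18 (SD, n = 3 each). The change was 0.91 ± 0.13 (SE), or 1.88-fold, with a 95% confidence interval from 0.61 to 1.21. The second probe for the same transcript gave 1.92, 2.03 and 1.85 on the siGFP arrays and 2.99, 2.88 and 2.89 on the circHIPK3 siRNA arrays. Its groups did not overlap either, and its change was 0.99 ± 0.10 (SE), or 1.98-fold, so that both probes had changes of similar size. The RNA came from whole cultures, in which more RNA per cell and a larger share of cells holding it cannot be told apart.

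**Figure D1:**
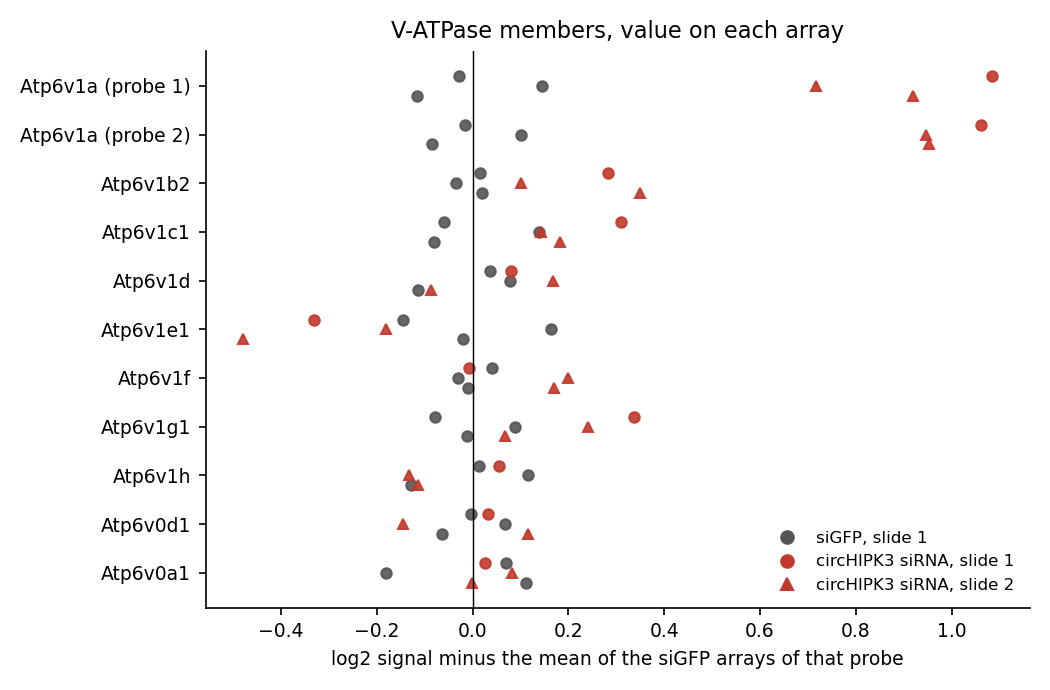
Log2 signal of each V-ATPase probe on each array, minus the mean of that probe's siGFP arrays. Grey points are siGFP and red points circHIPK3 siRNA, with circles for slide 1 and triangles for slide 2. Both Atp6v1a probes lie between 0.72 and 1.08 on the red arrays, and all other members between -0.48 and 0.35.

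The other slide held no siGFP array, so the change could be measured within a slide only for circHIPK3 siRNA replicate 1. That array lay 1.08 above the siGFP mean by the brighter probe and 1.06 by the second. Replicates 2 and 3 lay 0.72 and 0.92 above it by the brighter probe, in a comparison where group and slide cannot be told apart. The size of the change ran from 0.80 to 1.08 over 12 processing alternatives and from 0.82 to 1.00 when any array was left out. The filter, every kept probe, variance and replicate block settings could not alter the size. Slide as a fixed block and the first slide alone gave the same estimate, 1.08. The call was less firm and was kept in 9 of these 18 settings. It was lost without a filter on dim probes (limma adjusted p = 0.0824), with slide as a fixed block (0.133), on the first slide alone (0.158), with replicate number as a block, and on leaving out any array except circHIPK3 siRNA replicate 1.

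Atp6v1a stood apart among strongly expressed genes. Over all 25761 genes its change ranked 206th from the top, and each gene ranked above it had a lower mean signal. Among the 2046 genes with a mean signal at or above its own, it had the highest change, and the next was 0.50. In this bright set 1 gene was called higher, Atp6v1a itself, and 8 were called lower, and the median change was 0.0019. Atp6v1a also ranked first among genes at or above its own signal in all 18 other settings. The filter, variance and replicate block settings left the changes of these genes as reported, so the rank there was fixed. Its own mean signal, the cutoff, takes in its raised circHIPK3 siRNA arrays. These ranks describe a gene chosen with its change known.

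**Figure D2:**
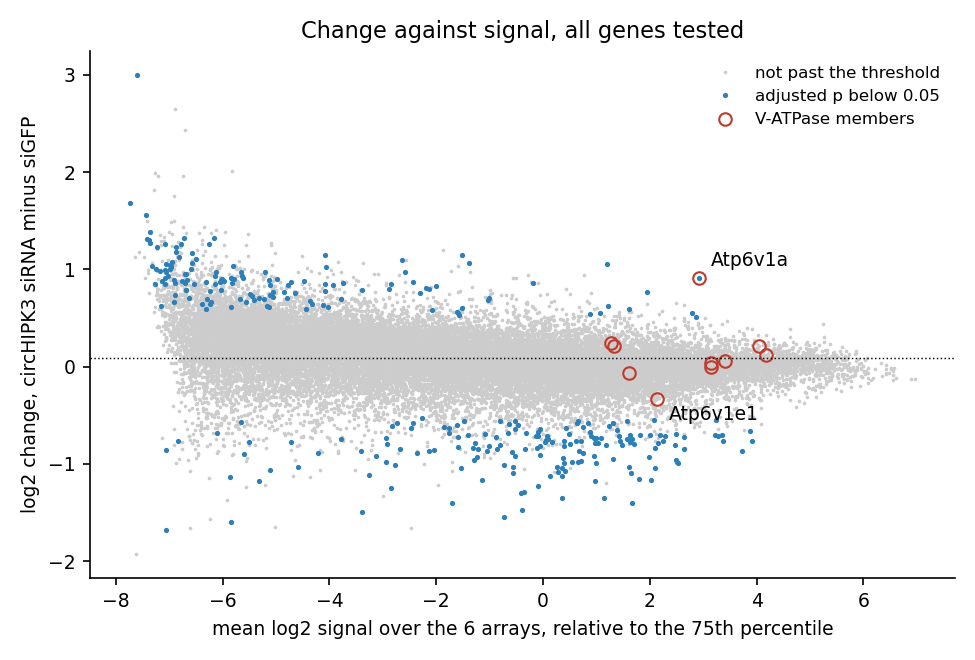
Log2 change (circHIPK3 siRNA minus siGFP) against the mean log2 signal over the 6 arrays for the 25761 genes tested. Blue points have an adjusted p below 0.05, red circles mark the 10 members, and the dotted line is the median change of 0.08. Atp6v1a, at 0.91, lies above all other genes of its signal or more.

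The sequence upstream of Atp6v1a is shown with that of Atp6v0d1, because these were the 2 of 6 members with a promoter in the RefSeq table (build GRCm38.p6) that hold the palindrome TCACGTGA. This is the core of the element that TFEB and related factors bind at lysosomal genes, and in each sequence the capitals mark it. The Atp6v1a sequence is chr16:44139260-44139509 on the minus strand and covers the 250 bases before the annotated start. The Atp6v0d1 sequence is chr8:105566061-105566160 on the minus strand and covers 100 bases that end 4 bases after the start.
Atp6v1a: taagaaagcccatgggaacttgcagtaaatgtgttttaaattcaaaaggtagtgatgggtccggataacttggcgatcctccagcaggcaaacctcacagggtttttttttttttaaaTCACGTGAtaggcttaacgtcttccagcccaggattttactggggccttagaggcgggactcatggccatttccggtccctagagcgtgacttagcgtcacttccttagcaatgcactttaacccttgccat
Atp6v0d1: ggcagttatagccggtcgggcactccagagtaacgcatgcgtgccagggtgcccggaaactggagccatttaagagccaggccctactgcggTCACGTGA
In Atp6v1a the palindrome lies 132 to 125 bases before the start, and in Atp6v0d1 it spans the start. Its letters read the same on both strands, and it contains the shorter E-box CACGTG, which in these 6 promoters occurred in the same 2 genes. The palindrome was present in 0.974% of 32851 promoters and the E-box in 7.15%, each searched, like those of the members, from 250 bases before to 50 after the start. Atp6v0d1, with the same letters, had a change of 0.0011 ± 0.11 (SE). Over the 233 tested genes with the palindrome the median change was 0.02, against 0.05 over the 13626 tested genes with a promoter in the table. Among the 233, 1 was called higher, Atp6v1a, and 2 were called lower. A match of letters is a description of this window and says nothing on binding.

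The gene next to Atp6v1a on its 5′ side is Naa50, which encodes the catalytic subunit of an N-terminal acetyltransferase and is read in the opposite direction. The annotated starts of the genes lie 532 bases apart, or 550 for a second Naa50 start. Naa50 had a change of 0.03 ± 0.11 (SE, adjusted p = 0.913 by limma).

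The other subunit of the ATP-binding head had a smaller change than Atp6v1a. Atp6v1b2, which encodes the B2 subunit, had log2 signals of 1.17, 1.11 and 1.17 on the siGFP arrays and 1.43, 1.25 and 1.499 on the circHIPK3 siRNA arrays. The groups did not overlap, and the change was 0.25 ± 0.10 (SE), with a 95% confidence interval from 0.0048 to 0.49. That interval is not adjusted for the number of genes tested, and the gene did not pass the threshold (adjusted p = 0.229 by limma). The A and B subunits alternate in the head in equal number.

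Among the stalk and regulatory subunits the changes went in both directions. Atp6v1e1, which encodes the E1 subunit of the peripheral stalk, had 2.15, 2.46 and 2.28 on the siGFP arrays and 1.97, 2.12 and 1.82 on the circHIPK3 siRNA arrays. All 3 circHIPK3 siRNA arrays lay below the siGFP arrays, nearest at replicate 2, and the change was -0.33 ± 0.13 (SE), the lowest of the 10. Atp6v1g1 encodes the G1 subunit, the partner of E in the same stalk, and had 3.85, 4.02 and 3.92 against 4.27, 4.17 and 3.999, a change of 0.22 ± 0.11 (SE). Replicate 3 lay within the siGFP range. Atp6v1c1, the C1 subunit that takes part in reversible joining of V1 to V0, had 1.16, 1.36 and 1.14 against 1.53, 1.36 and 1.401, a change of 0.21 ± 0.11 (SE). Its groups did not overlap, although the nearest values of both groups round to 1.36. Atp6v1h, the regulatory H subunit, ranged from 1.51 to 1.76 over the 6 arrays with overlapping groups, and its change was -0.06 ± 0.11 (SE).

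The rotor and membrane subunits had changes between 0.0011 and 0.12. Atp6v1d, the D subunit, ranged from 3.28 to 3.56 with a change of 0.05 ± 0.11 (SE). Atp6v1f, the F subunit, had 4.16, 4.09 and 4.11 on the siGFP arrays and 4.11, 4.32 and 4.29 on the circHIPK3 siRNA arrays, a change of 0.12 ± 0.10 (SE). For this gene the array that shared the siGFP slide lay within the siGFP range and the arrays of the other slide lay above it, and the fit with slide as a fixed block gave -0.0083. In V0, Atp6v0d1, the d1 subunit, ranged from 3.00 to 3.26. Atp6v0a1, the a1 subunit known from synaptic vesicles and secretory granules, ranged from 2.95 to 3.24, and its change was 0.04 ± 0.11 (SE). In both V0 genes and in Atp6v1d the groups overlapped.

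Groups did not overlap for 4 of the 10 members, with Atp6v1a, Atp6v1b2 and Atp6v1c1 higher and Atp6v1e1 lower. Over all genes 25.9% had groups without overlap, 16.5% higher and 9.39% lower. The SE values of the members lay between 0.10 and 0.13. The limma fit draws each gene's variance towards a value shared by all genes, so these are alike in part by the method. The SD of the siGFP arrays ran from 0.03 for Atp6v1b2 to 0.16 for Atp6v0a1. A comparison within arrays does not depend on the scaling. With each gene set to its own siGFP mean, Atp6v1a exceeded the median of the other 9 members by 1.03, 0.62 and 0.85 on the circHIPK3 siRNA arrays, where the siGFP arrays gave -0.04, 0.07 and -0.10.

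**Figure D3:**
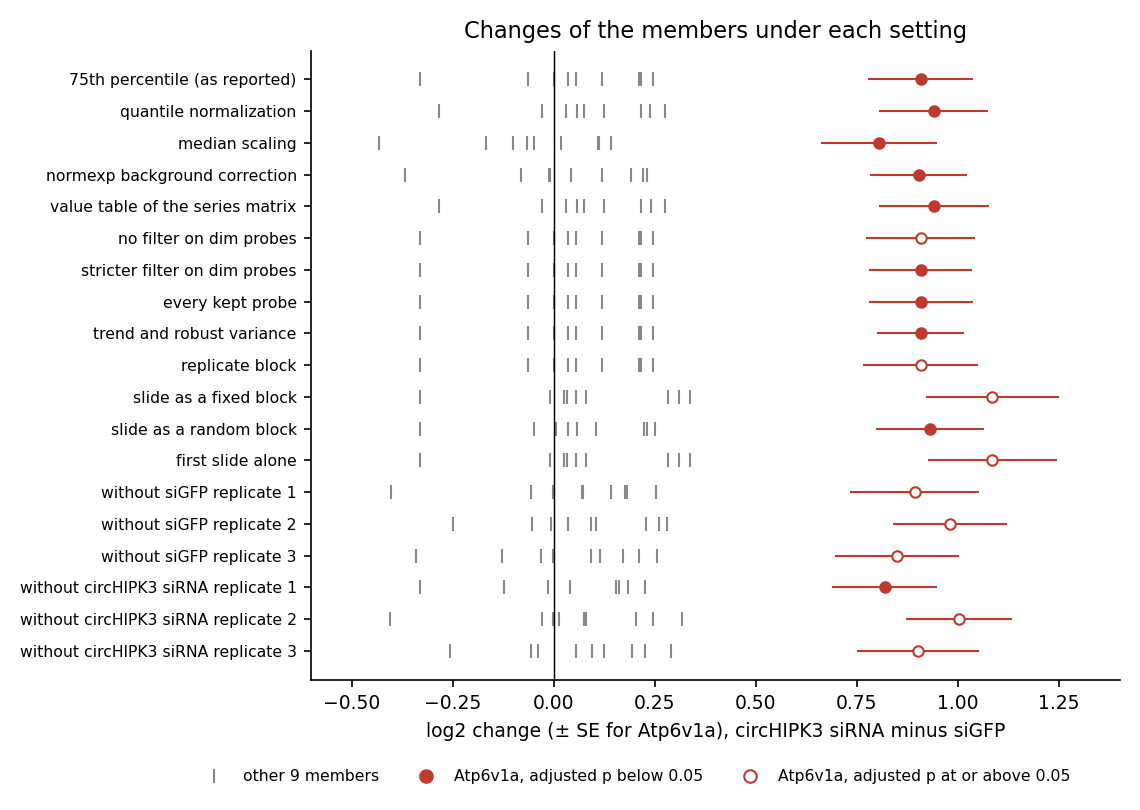
Log2 change of the members (circHIPK3 siRNA minus siGFP) under the reported setting and 18 alternatives. Red circles with SE bars are Atp6v1a, filled where the adjusted p was below 0.05, and grey ticks are the other 9 members. Atp6v1a stays between 0.80 and 1.08, apart from the other members in all rows, and is filled in the reported setting and in 9 of the 18 alternatives. The filter, every kept probe, variance and replicate block rows repeat the reported changes by construction.

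The pump has further subunits, many of them forms restricted to certain tissues, and accessory proteins. Of 16 such genes 15 were measured, and none passed in either direction by limma. Their median change of 0.03 takes in Atp6v1b1 and Atp6ap1l, which were kept only through the circHIPK3 siRNA arrays. At an unadjusted p below 0.05 there were 2, Atp6v1c2 and Atp6v1b1. Over all genes tested 21.1% had an unadjusted p below 0.05, the share against which this count and those of the lists that follow are to be read. Atp6v0d2, the d2 subunit known from osteoclasts, was not well above background on any array. Atp6v1b1, the B1 subunit known from kidney and inner ear, had -6.95, -7.11 and -6.95 on the siGFP arrays, where it was not well above background, and -6.60, -6.16 and -6.22 on the circHIPK3 siRNA arrays. Atp6v1b1 entered the fit only through the circHIPK3 siRNA arrays, so no test is read from it. Under the reported scaling the arrays give only a bound, at least 1.53-fold higher after circHIPK3 siRNA. For it each siGFP array counts with the probe's own signal, or with a floor where that is higher. The floor is the lowest signal of any probe that passed the background flag on that array. The bound was not computed for other processing. Over 11 processing alternatives the log2 change itself ran from 0.08, with normexp background correction, to 0.68, its reported value. Atp6v1c2, the C2 subunit, had -4.70, -4.54 and -4.65 on the siGFP arrays and -5.03, -4.96 and -5.39 on the circHIPK3 siRNA arrays, a change of -0.50 ± 0.14 (SE, adjusted p = 0.114 by limma). Atp6ap2, an accessory protein also known as the prorenin receptor, had 4.22, 4.27 and 4.18 against 4.39, 4.49 and 4.37, a change of 0.19 ± 0.09 (SE, adjusted p = 0.273 by limma). The proton ring genes Atp6v0c and Atp6v0b had 0.04 ± 0.11 and 0.03 ± 0.11 (SE), and Tcirg1, the a3 subunit found on insulin granules in mice, had -0.0073 ± 0.13 (SE). These last 3 genes were picked for their roles.

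Factors that assemble or regulate the pump gave no call among the 13 measured, of 13 listed (limma, 4 at an unadjusted p below 0.05, median change 0.09). Tmem9b, a lysosomal membrane protein of the TMEM9 family, was nearest to the threshold. It had 1.17, 1.30 and 1.23 on the siGFP arrays and 0.76, 0.73 and 0.71 on the circHIPK3 siRNA arrays, a change of -0.50 ± 0.09 (SE, adjusted p = 0.0530 by limma). Rogdi, a partner of the complex that helps V1 rejoin V0, had -0.55, -0.97 and -0.80 against -1.32, -1.75 and -1.31, a change of -0.69 ± 0.16 (SE, adjusted p = 0.0896 by limma) and -0.84 by its second probe. Ccdc115, an endoplasmic reticulum factor of pump assembly, had 0.80, 0.78 and 0.60 against 0.37, 0.51 and 0.36, a change of -0.32 ± 0.10 (SE, adjusted p = 0.161 by limma). In these 3 genes the circHIPK3 siRNA arrays were lower than the siGFP arrays without overlap. The named genes were the 3 with the smallest p in each list.

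**Figure D4:**
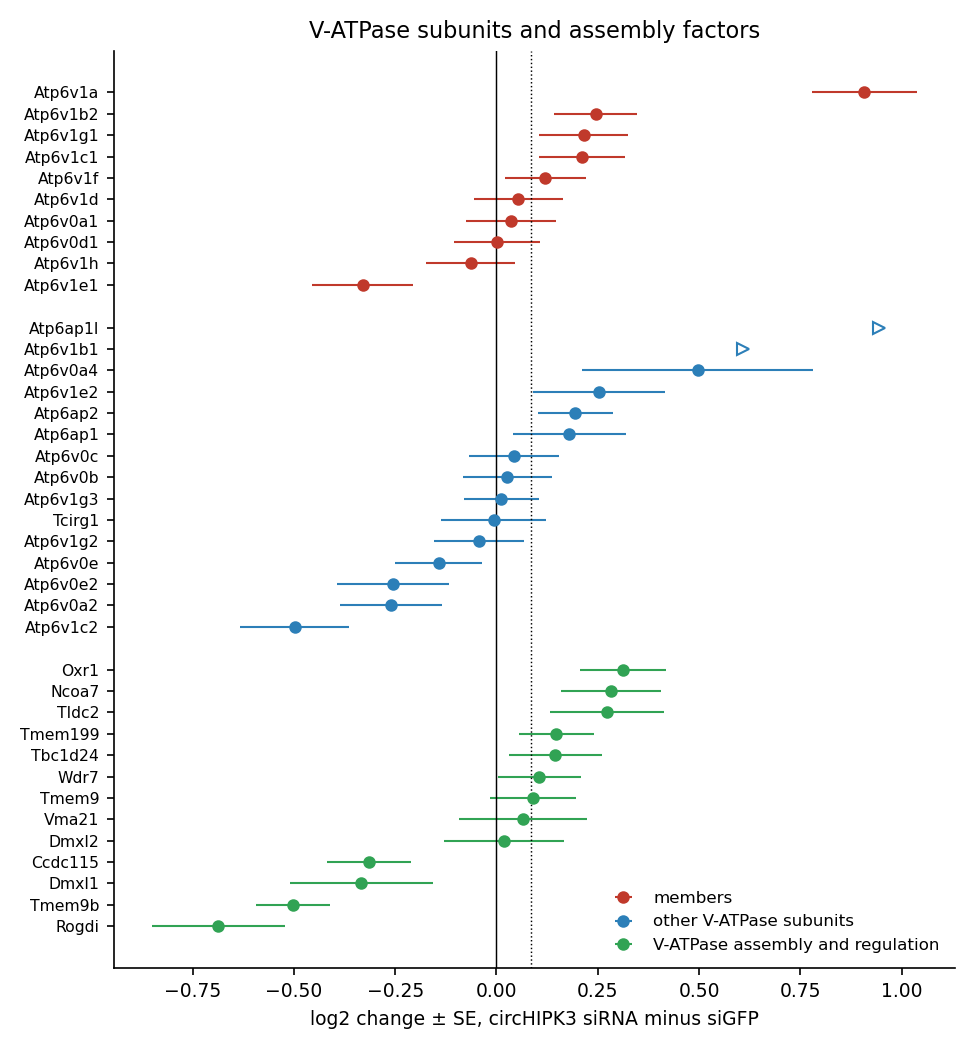
Log2 change ± SE (circHIPK3 siRNA minus siGFP) of the 10 members in red, 15 further subunits and accessory proteins in blue and 13 assembly and regulation factors in green. Open triangles are lower bounds, under the reported scaling only, for Atp6ap1l and Atp6v1b1, which failed the background flag on all siGFP arrays. The solid line is 0 and the dotted line the median of all genes. Atp6v1a lies at 0.91, and Rogdi has the lowest value at -0.69.

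The pump drives, or works beside, other proteins of acidic organelles. Among 23 ion transporters of these organelles none passed (limma, 4 at an unadjusted p below 0.05, median change 0.07). Slc30a8, the zinc transporter of insulin granules, had 3.61, 3.65 and 3.66 on the siGFP arrays and 3.29, 3.42 and 3.23 on the circHIPK3 siRNA arrays, a change of -0.33 ± 0.10 (SE, adjusted p = 0.127 by limma). The proton-coupled monoamine transporter gene Slc18a1 had -0.42 ± 0.13 and the endosomal chloride and proton exchanger gene Clcn5 had 0.28 ± 0.10 (SE, adjusted p = 0.149 and 0.176 by limma). Of 38 lysosomal hydrolases and membrane proteins 37 were measured and none passed (limma, 7 at an unadjusted p below 0.05, median change 0.07). Asah1, acid ceramidase, had 2.50, 2.69 and 2.33 against 1.85, 2.05 and 1.91, a change of -0.57 ± 0.12 (SE, adjusted p = 0.0708 by limma), and -0.51 by its second probe. The cholesterol transporter gene Npc1 had 0.35 ± 0.09 and the acid glucosidase gene Gaa -0.35 ± 0.10 (SE, adjusted p = 0.112 and 0.131 by limma).

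At the lysosome surface the pump takes part in nutrient sensing with the Ragulator complex and the Rag GTPases, and TFEB, TFE3 and MITF are the factors that switch on lysosomal genes. Of 16 such genes 15 were measured and none passed (limma, 6 at an unadjusted p below 0.05). The list had a median change of -0.10, with 13 of 15 below the median of all genes. A lean below that median was not particular to this list. The beta cell markers had a median change of -0.09, with 9 of 11 below it, and the 2046 bright genes had a median of 0.0019. The Rag GTPase gene Rragd had -0.42 ± 0.13, the Ragulator gene Lamtor3 had -0.29 ± 0.10 and Tfe3 had -0.31 ± 0.12 (SE, adjusted p = 0.153, 0.163 and 0.203 by limma). Tfeb had 0.05 ± 0.12 (SE). Over the 5 lists together none of 103 genes passed, with 23 at an unadjusted p below 0.05, a share of 22.3% against 21.1% over all genes. Groups did not overlap for 15 higher and 15 lower genes, where 16.5% and 9.39% of all genes did so. The 23 include Atp6v1b1, and the 15 higher include Atp6v1b1 and Atp6ap1l, both kept only through the circHIPK3 siRNA arrays. In these lists 10 of 84 genes with a promoter in the RefSeq table held the palindrome shown above. By the brightest probe their changes lay between -0.18 and 0.21, with none called. Further probes gave -0.42 for Ctsa, -0.35 and 0.31 for Cln3, 0.21 for Slc36a1, 0.10 for Ctsd and -0.05 to 0.14 for Vma21.

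**Figure D5:**
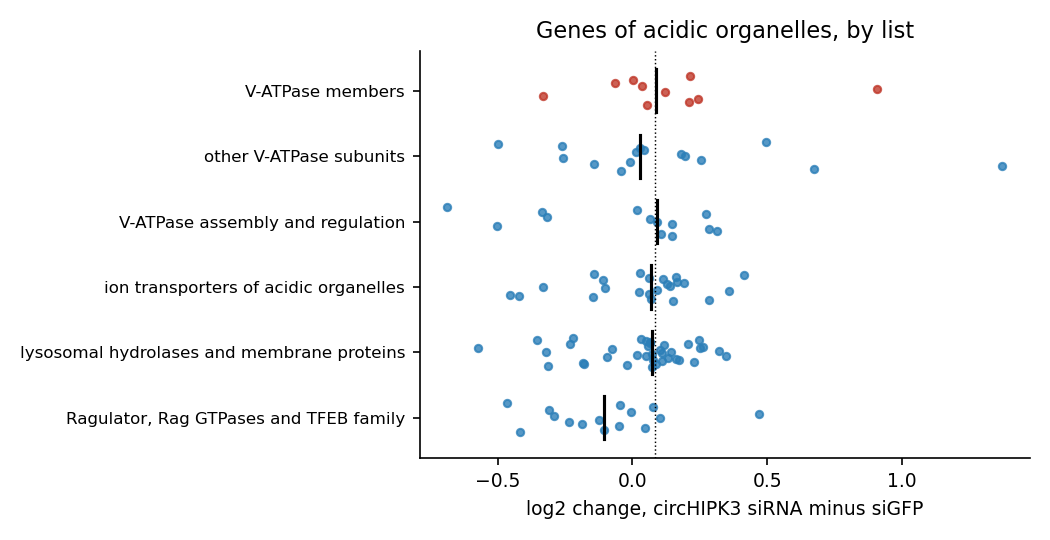
Log2 change (circHIPK3 siRNA minus siGFP) of each measured gene, by list, with the members in red. Black bars are list medians and the dotted line is the median of all genes, 0.08. The Ragulator, Rag and TFEB family list has the lowest median, at -0.10, and Atp6v1a is the red point at 0.91. The highest point of the further subunits is Atp6ap1l, for which only a lower bound holds.

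The mean of the 10 members, each centred on its own average, was -0.08, -0.01 and -0.11 on the siGFP arrays and 0.12, 0.05 and 0.04 on the circHIPK3 siRNA arrays. Among 17008 other genes with a symbol, the 5 with the most similar pattern over the 6 arrays were Fam102b, Zbtb43, Zfand1, Glmn and Diaph2. Their Pearson correlations lay between 0.993 and 0.996, a description over arrays that share group and slide, and their changes between 0.14 and 0.46.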

How the data were processed

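Per the labels' protocols, total RNA was amplified and labelled with Cy3. Each deposited scanner table gives a background-subtracted intensity per spot and median intensities of the spot and its surroundings, and the submitters' processing notes name Agilent Feature Extraction 11.0.1.1 as the software. The other deposited columns used are flags of 0 or 1, per the file headers. A deposited table gives log2 values for 31868 probes, which track the log2 intensity of the matching array (lowest correlation 0.9999) and have column medians of 9.7965 to 9.7968; its normalization is not given in the sources used here.

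Spots with a non-uniformity or population outlier flag were dropped before replicate spots were averaged per probe. Each array was scaled to the 75th percentile of its 43020 non-control spots. A probe was kept if it passed the background flag on every array of either group (31361 of 39429 probes), and no probe was saturated. Accessions matched to RefSeq (GRCm38.p6) named 27234 probes. The files name another build, so only RefSeq sequence is given with coordinates. The brightest kept probe stood for each gene.

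Changes were fitted in R 4.3.3 by the lmFit and eBayes functions of limma 3.58.1. Group was the one term, p-values were adjusted by Benjamini-Hochberg over 25761 genes, and the threshold was 0.05. The fit was also run on simulated data with independent noise for each gene and no slide effect. That run therefore does not bear on the overlap of group and slide. No set test was run. The members, and the lists, were chosen with earlier results of these data known. Named genes were all members, and in each other list the called genes or, failing those, the 3 with the smallest p; genes outside this rule are said to be picked for their roles or for the feature described. The labels do not say whether same-numbered arrays were prepared together, and the arrays were treated as unpaired. Deviations of same-numbered arrays correlated at -0.02, 0.27 and -0.13, and those of other pairs at -0.35 to 0.29. These values are centred within each group of 3 and cannot decide whether the numbers pair the arrays. Figures were drawn with matplotlib 3.10.9.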

Additional observations from a re-analysis of the deposited data

How the results depend on the processing

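With 6 arrays, their number limits the precision. The count of all called genes, 301 as reported, was 599 with median scaling, 621 with trend and robust variance, 185 with the value table and 125 with slide as a random block. It was 0 by limma without a filter on dim probes, with the replicate block, with slide as a fixed block and on the first slide alone, where 5631, 5125, 2676 and 2869 genes had an unadjusted p below 0.05. Quantile normalization gave 42 higher and 202 lower, and median scaling 200 and 399, against 136 and 165 as reported. Leaving out an array gave 0 to 1719, the most without circHIPK3 siRNA replicate 1, when group and slide coincide, 1 without circHIPK3 siRNA replicate 2 and 0 otherwise.

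The members' count went from 1 to 0 in the same 4 settings, and was 0 to 1 with an array left out. The change of Atp6v1a without its call was 0.91 with no filter on dim probes (limma adjusted p = 0.0824), 0.91 with the replicate block (limma adjusted p = 0.0932), and 1.08 both with slide as a fixed block and on the first slide alone (limma adjusted p = 0.133 and 0.158). With an array left out it was 0.82 to 1.00. Its adjusted p ran from 0.0032 to 0.162 over all settings. No other member or named gene was called as reported, so the replicate block, with 0 calls over all genes, had no call of theirs to remove. The cause of the lost calls was not tested.

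The members' median change relative to all genes, 0.0029 as reported, was 0.0689 with quantile normalization and 0.0707 with the value table. Median scaling moved the median of all genes from 0.08 to -0.02. The assembly list had 2 calls (Tmem9b and Rogdi) with median scaling and 2 with trend and robust variance, the lysosomal list 1 (Asah1) in each, and with an array left out the other subunits, assembly and Ragulator lists had 0 to 1. Small changes of members passed through 0. Median scaling gave -0.0486 for Atp6v1d, -0.10 for Atp6v0d1 and -0.0671 for Atp6v0a1. Normexp gave -0.0092 and -0.0121 for the last 2. Slide as a fixed block and the first slide alone gave -0.0083 for Atp6v1f and 0.0555 for Atp6v1h. With an array left out Atp6v1d ran from -0.0029 to 0.12, Atp6v0d1 from -0.0559 to 0.0737 and Atp6v0a1 from -0.0543 to 0.0912. Over 24 genes, the other 9 members and 15 named list genes, 407 of 431 values kept direction and side of the threshold, 16 changed sign (those above) and 8 passed it. Much of that count was fixed beforehand. The filter, every kept probe, variance and replicate block settings left these changes as reported, so no sign could differ there. In each setting with 0 calls over all genes, no gene could pass the threshold. The count is therefore no measure of robustness. Atp6v1b1, from which no test is read, is among the 24 and was the call of the other subunits with an array left out. It was not tested under the stricter filter.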

Other observations

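The genes with the pattern most similar to Atp6v1a alone were looked up after its values had been seen. Over the 6 arrays they were Klre1, Desi2, 6430550D23Rik, Birc3 and Nudt12, with Pearson correlations of 0.992 to 0.994 among 17008 genes and changes of 0.35 to 0.68. On the 3′ side of Atp6v1a the next genes are Gramd1c, with a change of 0.11 ± 0.12, and Zdhhc23, with 0.31 ± 0.32 (SE), and neither passed the threshold. Beyond Naa50, Usf3 had -0.11 ± 0.17 (SE).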
